A study of Homo sapiens with 24 samples.

Results

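Chaperone genes of 3 cell compartments were followed through a series on the RPRD proteins: 24 genes whose products work in the cytosol, 12 of the endoplasmic reticulum (ER) and 9 of mitochondria. The rule that picks these 45 genes uses gene names and compartments, out of 58138 gene names in the count tables, and all 45 are listed there. The list was chosen with earlier results of these data known. The study asked how RPRD1A, RPRD1B and RPRD2, which bind the C-terminal domain of RNA polymerase II, affect steady-state RNA. The sequenced material was polyadenylated RNA from 24 samples in 12 groups of 2, made into QuantSeq REV libraries that count each transcript near its 3′ end.

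The first 16 samples are HEK293T cells, a human embryonic kidney line that carries the SV40 large T antigen, and every one of them, controls included, was transfected with siRNA. Their 8 groups are the control siRNA, 3 single knockdowns (RPRD1A_KD, RPRD1B_KD, RPRD2_KD), the triple RPRD1A_RPRD1B_RPRD2_KD, and 3 doubles, RPRD1A_RPRD2_KD, RPRD1B_RPRD2_KD and one whose label, RPRD1A_RPRD1A_KD, names RPRD1A in both places and is kept as written. The other 8 samples are Flp-In T-REx 293 cells, a 293 derivative built to take a single tetracycline-inducible insert, and none of them is labelled as transfected. They form the groups FLP and RPRD1B_FL, labelled untreated, and FLP_TET and RPRD1B_FL_TET, labelled as induced with tetracycline. The labels do not explain FL, and they do not say whether RPRD1B_FL is 1 clone. The protocol gives 48 h for both siRNA and tetracycline. Nothing states that the 2 samples of a group were separate cultures, so p-values measure only the spread between these samples, which may be technical.

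Chaperones bind unfolded proteins and help them fold, assemble or be degraded. In the cytosol the transcription factor HSF1 raises HSP70, HSP90, HSP40 and small heat shock protein genes when proteins unfold. In the ER the sensors ATF6, IRE1 and PERK raise BiP (HSPA5), GRP94 (HSP90B1), protein disulfide isomerases and cochaperones. In mitochondria the HSP60 and HSP10 chaperonin (HSPD1, HSPE1), mortalin (HSPA9) and the proteases LONP1 and CLPP make up the best known targets of the mitochondrial unfolded protein response. Tetracyclines bind the mitochondrial ribosome, and imbalance between nuclear and mitochondrial translation is a known trigger of that response, so the tetracycline groups test whether these genes moved together.

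Short motifs of the stress response elements lay unevenly over the compartments in the promoters. RefSeq promoter windows (GRCh38.p14, 250 bases before to 50 after a start) were held for 40 of the 45 genes, and both strands were searched. A gene was counted when any of its windows matched, while percentages are of single windows. Genes with several starts, such as HSPD1, had more chances to match, so these measures are not alike. The parts of the ER stress response elements, CCAAT and CCACG, are each common, in 34.6% and 38.1% of all 35116 windows. Both together on any strand, with at most 9 bases between them, were in 1.51% of all windows and in 8 of 11 ER genes (CALR, CANX, HSP90B1, HSPA5, HYOU1, PDIA6, SDF2L1 and XBP1). The same pair was in CCT2 alone of the 22 cytosolic genes and in none of the 7 mitochondrial genes with a window. Heat shock elements repeat the unit GAA in alternating directions, so GAANNTTC and TTCNNGAA, which read the same on both strands, were searched. One or the other was in 13.5% of all windows, in 14 of 22 cytosolic genes, in CANX of the ER genes, and in HSPA9 and HSPD1 of the mitochondrial genes. The motifs overlapped each other, as in a longer element, in 0.49% of all windows, in 6 cytosolic genes (CHORDC1, DNAJA1, DNAJB6, HSP90AA1, HSP90AB1 and HSPA8) and in HSPD1. The stretches below are shown because their genes have different values in the comparisons that follow. Each is read on the gene's strand with 10 flanking bases on each side. HSP90B1, HYOU1 and HSP90AB1 hold further stretches of the same kind before the start, not shown. Capitals mark CCAAT and CCACG or their reverse complements in the first 4, and overlapping heat shock motifs in the other 2.
HSPA5 (chr9:125241381-125241419, minus strand): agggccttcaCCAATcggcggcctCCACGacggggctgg
HSP90B1 (chr12:103930206-103930244, plus strand): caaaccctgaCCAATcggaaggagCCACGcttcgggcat
HYOU1 (chr11:119057264-119057294, minus strand): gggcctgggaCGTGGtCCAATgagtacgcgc
SDF2L1 (chr22:21642104-21642134, plus strand): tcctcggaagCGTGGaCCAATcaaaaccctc
HSP90AA1 (chr14:102087110-102087142, minus strand): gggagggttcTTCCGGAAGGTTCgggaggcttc
HSP90AB1 (chr6:44247821-44247853, plus strand): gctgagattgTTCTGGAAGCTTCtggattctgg
A match describes letters in a window and is not a measured binding site.

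Counts in genes totalled 1817246 to 3135625 per HEK293T library and 2342969 to 3531106 per Flp-In library, so 3 counts correspond to 0.85 to 1.65 CPM, which scales counts to a common library total. Levels below are CPM scaled by TMM (trimmed mean of M-values) over all 24 libraries, and differences are log2 fold changes with standard errors (SE) from edgeR's quasi-likelihood test, with Benjamini-Hochberg adjusted p over all genes tested. A gene was called when that adjusted p was under 0.05. The targeted genes were lower where the labels name them: RPRD1A was at 152 and 162 CPM with control siRNA and at 14.2 to 26.8 CPM in the 8 libraries labelled with its silencing. RPRD2 was at 96.1 and 99.4 CPM with control siRNA and at 30.2 to 67.9 CPM in its 8, while RPRD1B, at 27.8 and 27.5 CPM with control siRNA, was at 3.87 to 14.3 CPM in the 6 libraries whose labels name it. RPRD1B was also at 13.8 and 7.88 CPM (27 and 21 counts) in the libraries labelled RPRD1A_RPRD1A_KD, whose label does not name it. The second RPRD1A_RPRD2_KD library stood apart, at -50.7 on the first principal component against -2.41 to 11.4 for the other 15 libraries. Of the 5 markers of other cell types, CD3E was at 0 in every library, PTPRC in all HEK293T libraries and PECAM1 in all Flp-In libraries. The fibroblast marker COL1A1 was counted in every library, at 3 to 42 counts. The 5 together reached at most 14.5 CPM in HEK293T and 5.70 CPM in Flp-In cells. The 8 markers listed for 293 cells were all counted in every library too, with PAX2 at only 1 to 12 counts in HEK293T.

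Of the 45 genes, 44 passed the filter on low counts in both lines. HSPA1A, 1 of 2 near-identical genes for the stress-inducible HSP70, had 0 to 7 counts per library (median 2.5) and was not tested. Its neighbour HSPA1B on chromosome 6 had 838 to 2274. HSPA8, the constitutive HSC70, had only 8 to 50 counts, with 17 named pseudogenes in the annotation and small nucleolar RNA genes inside it. DNAJB4, an HSP40 cochaperone, had 1 to 40. DNAJB4 overlaps GIPC2 on its own strand. How reads that fit several copies were counted is not given in the sources used here, so the values of HSPA1A, HSPA1B and HSPA8 are uncertain. In the annotation 15 members overlap another gene on their own strand and 23 on the opposite strand, and the strand setting of the counting is not given in the sources used here.

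Among the 44 genes, HSPD1, the HSP60 chaperonin, had the smallest ratio between its highest and lowest group means in each line. Its 16 HEK293T libraries ran from 962 to 1165 CPM (median 1018), and its 8 Flp-In libraries from 657 to 754 CPM (median 707). That ratio was 1.07 in HEK293T and 1.03 in Flp-In cells. HSF1, the master heat shock factor, was at 39.6 to 73.6 CPM (median 52.6) in HEK293T and 32.4 to 48.8 CPM (median 42.2) in Flp-In cells. At the other end, group means of DNAJB4 spread 2.30-fold in HEK293T and 6.63-fold in Flp-In cells, with few counts behind them. Next among the 44 came HSP90B1 with 1.84-fold and PDIA4 with 1.76-fold in HEK293T, and HSPB1 with 2.11-fold (15 to 70 counts), HSP90AA1 with 1.91-fold and CCT7 with 1.74-fold in Flp-In cells.

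**Figure D1:**
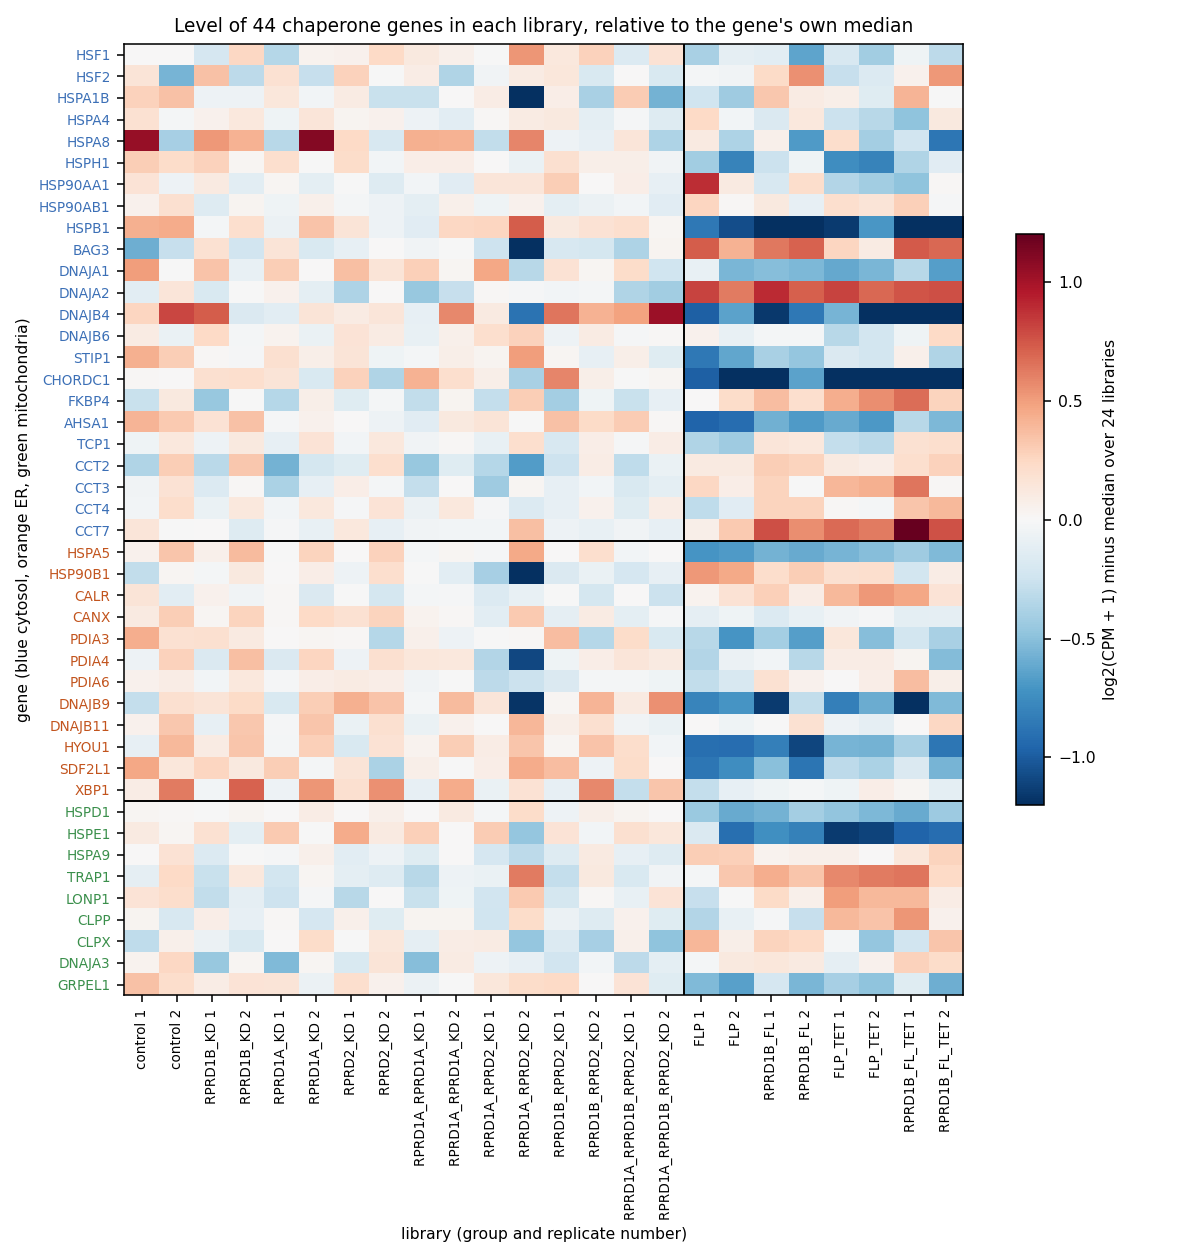
Each row is 1 of 44 chaperone genes and each column 1 of 24 libraries. Colour gives log2(CPM + 1) minus the gene's median over all libraries, on a scale that ends at 1.2 in both directions, so stronger values share the end colour. The vertical line parts HEK293T (left) from Flp-In libraries (right). HSPB1, CHORDC1, HYOU1 and HSPA5 are lower on the right, and the second RPRD1A_RPRD2_KD column carries the low HSP90B1, HSPA1B and PDIA4 values.

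The 2 lines differed in several members, described here without a test because transfection and line changed together and cannot be told apart. Among members, 7 of 44 were higher in all 16 HEK293T libraries than in all 8 Flp-In libraries, and 8.40% of the 11107 genes tested in both lines did the same. They are the small heat shock protein HSPB1 with a ratio of medians of 2.98, CHORDC1 with 2.73, HYOU1 with 1.98, the HSP90 activator AHSA1 with 1.71, the mitochondrial nucleotide exchange factor GRPEL1 with 1.57, BiP (HSPA5) with 1.51 and HSPD1 with 1.44. The HSP40 gene DNAJA2 was the only member lower throughout, with a ratio of 0.55, and 9.98% of genes were lower throughout. In a bulk sample, fewer cells with a transcript and less of it per cell cannot be told apart, here and in each comparison below.

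With tetracycline, the mitochondrial chaperone genes did not move together. Over both Flp-In lines, 3 of 44 members were called, and 2.98% of the 11948 genes tested were, 1.40% higher and 1.58% lower. The mitochondrial protease subunit CLPP rose, the HSP70-HSP90 adaptor STIP1 rose, and the inducible cytosolic HSP90 gene HSP90AA1 fell. HSPD1 and HSPA9, the chaperones that define mitochondrial protein stress, were not called.

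CLPP (chr19:6361452-6368910 in GENCODE 29, GRCh38) encodes the proteolytic core of the matrix ClpXP protease. It was at 343 and 410 CPM in FLP, 573 and 554 in FLP_TET, 432 and 360 in RPRD1B_FL, and 631 and 454 in RPRD1B_FL_TET. All 4 libraries with tetracycline lay above all 4 without. The log2 fold change was 0.50 (SE 0.11, adjusted p = 0.0345 by edgeR's quasi-likelihood test), higher in both lines. CLPX, the unfoldase that feeds the same protease, was at 49.4 and 39.2 CPM in FLP and 36.6 and 26.7 in FLP_TET, then 45.2 and 44.1 in RPRD1B_FL and 31.6 and 47.2 in RPRD1B_FL_TET. Its groups overlapped, and its log2 fold change of -0.34 (SE 0.16) was not called (edgeR adjusted p = 0.186).

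LONP1, the other main matrix protease, was at 124 and 150 CPM in FLP, 213 and 198 in FLP_TET, 178 and 157 in RPRD1B_FL, and 198 and 160 in RPRD1B_FL_TET. The 2 FLP_TET libraries were the highest of the 8, and the RPRD1B_FL libraries overlapped between conditions. Over both lines its log2 fold change was 0.33 (SE 0.11, edgeR adjusted p = 0.0901). TRAP1, the mitochondrial HSP90, had 0.24 (SE 0.12, adjusted p = 0.21 in the same fit).

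HSPD1 and HSPE1 encode the chaperonin and its lid, and their starts face away from each other on chromosome 2, 105 bases apart in RefSeq. HSPD1 was at 734 and 658 CPM in FLP, 723 and 691 in FLP_TET, 674 and 754 in RPRD1B_FL, and 657 and 738 in RPRD1B_FL_TET. Its groups overlapped fully, with a log2 fold change of -0.02 (SE 0.10, edgeR adjusted p = 0.938). HSPE1 was at 283 and 170 CPM in FLP, 143 and 148 in FLP_TET, 191 and 182 in RPRD1B_FL, and 164 and 170 in RPRD1B_FL_TET. All 4 libraries with tetracycline were below all 4 without, though the second FLP library at 169.9 CPM and the second RPRD1B_FL_TET library at 169.6 CPM nearly met, and the first FLP library was far above the rest. The log2 fold change of -0.41 (SE 0.13) missed the threshold (edgeR adjusted p = 0.0691). HSPE1 overlaps the read-through gene HSPE1-MOB4 on its own strand. HSPA9, mortalin, which pulls proteins into the matrix, was at 171 and 170 CPM in FLP, 146 and 140 in FLP_TET, 144 and 145 in RPRD1B_FL, and 154 and 168 in RPRD1B_FL_TET. It was lower with tetracycline in the first line and higher in the second, with a log2 fold change over both of -0.07 (SE 0.10, edgeR adjusted p = 0.735).

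In all, 1 of 9 mitochondrial members was called higher and 0 lower, and 5 of the 9 fold changes were above 0. Their median log2 fold change was 0.01, beside -0.01 over all genes tested.

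In the cytosol the changes went both ways within the HSP90 system. STIP1 (chr11:64185272-64204543) was at 307 and 361 CPM in FLP, 494 and 477 in FLP_TET, 426 and 402 in RPRD1B_FL, and 580 and 433 in RPRD1B_FL_TET, with no overlap between treated and untreated libraries. The change on the log2 scale was 0.40 (SE 0.11, edgeR adjusted p = 0.0476). HSP90AA1 (chr14:102080738-102139699) was at 3860 and 2253 CPM in FLP, 1639 and 1564 in FLP_TET, 1835 and 2415 in RPRD1B_FL, and 1493 and 2115 in RPRD1B_FL_TET. The first FLP library was the highest by far, and the RPRD1B_FL libraries overlapped between conditions. The log2 fold change was -0.60 (SE 0.14, edgeR adjusted p = 0.0386), and DESeq2 did not call it (adjusted p = 0.107). HSP90AB1, the constitutive HSP90 gene, whose promoter window also holds overlapping heat shock motifs, had 0.07 (SE 0.10, adjusted p = 0.704 in the same fit).

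The other cytosolic members were not called with tetracycline. The chaperonin subunit CCT7 was nearest, at 0.38 (SE 0.11, edgeR adjusted p = 0.0543). DNAJB4 had the lowest value, -1.37 (SE 0.50), but its libraries held 1 to 16 counts in Flp-In cells and the RPRD1B_FL_TET libraries were below the level of 3 counts. The factor HSF1 (0.05) and 4 of its well known targets, HSPA1B (0.14), HSPH1 (-0.15), HSPB1 (-0.14) and the cochaperone BAG3 (-0.19), had edgeR adjusted p from 0.368 for BAG3 to 0.881 for HSF1. STIP1 and HSP90AA1, called in opposite directions above, also have heat shock motifs in their promoter windows. Cytosolic members had a median of -0.04, with 1 of 23 called higher and 1 lower.

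No ER member was called with tetracycline by edgeR, with 5 at an unadjusted p under 0.05, where 23.9% of genes stood. DESeq2 called 2, HSP90B1 and SDF2L1, and 3.07% of genes. Of the 12, 9 had fold changes above 0, against 49.0% of all genes. The ER median was 0.12. Nearest to the threshold were the cochaperone SDF2L1 at 0.38 (SE 0.11, edgeR adjusted p = 0.0595) and GRP94 (HSP90B1) at -0.32 (SE 0.10, adjusted p = 0.071). HSP90B1 was at 921 and 882 CPM in FLP, 732 and 737 in FLP_TET, 745 and 787 in RPRD1B_FL, and 549 and 682 in RPRD1B_FL_TET, so all 4 libraries with tetracycline were below all 4 without. HSPA5, whose window holds the same pair of motifs, was at 832 and 852 CPM in FLP, 926 and 955 in FLP_TET, 922 and 894 in RPRD1B_FL, and 1012 and 943 in RPRD1B_FL_TET, and here all 4 with tetracycline were above all 4 without. Its log2 fold change was only 0.12 (SE 0.09, edgeR adjusted p = 0.449). XBP1, the factor downstream of IRE1, was at 170 to 203 CPM without and 191 to 219 CPM with tetracycline, which overlap. DNAJB9, an HSP40 cochaperone of the ER and a sensitive marker of its stress, was at 6.92 to 13.3 CPM without and 4.57 to 11.1 CPM with tetracycline.

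By groups without overlap, 3 members were higher in all 4 libraries with tetracycline (STIP1, HSPA5 and CLPP), and 4.02% of genes were. Lower in all 4 were 2 members (HSP90B1 and HSPE1), and 3.73% of genes were.

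**Figure D2:**
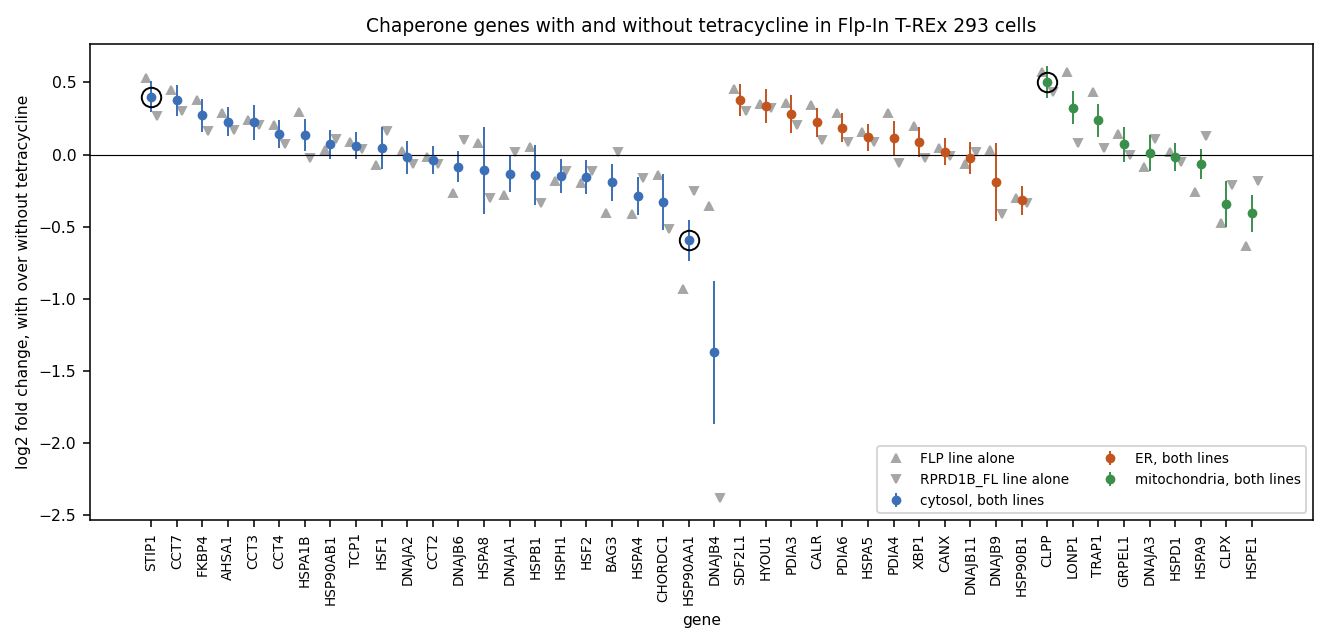
Log2 fold change with over without tetracycline for 44 chaperone genes, sorted within each compartment. Coloured points with bars are the estimate over both lines and its SE, grey triangles are the FLP line (up) and the RPRD1B_FL line (down) alone, and black rings mark called genes. Only STIP1, HSP90AA1 and CLPP are ringed, and mitochondrial genes spread from -0.41 (HSPE1) to 0.50 (CLPP).

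Taken line by line, the calls were fewer. FLP_TET against FLP called 1 of 44 members, with 1.02% of all genes called: HSP90AA1 at -0.94 (SE 0.20, edgeR adjusted p = 0.0463, DESeq2 adjusted p = 0.0718). LONP1 and CLPP, both at 0.58, STIP1 at 0.53 and HSPE1 at -0.64 had edgeR adjusted p from 0.0619 to 0.0667 in that comparison. DESeq2 called these 4 there (adjusted p from 0.039 to 0.0433), with 2.09% of genes. That made 3 of the 9 mitochondrial members called by DESeq2, LONP1 and CLPP higher and HSPE1 lower. RPRD1B_FL_TET against RPRD1B_FL called 0 members and 0.0% of genes by edgeR. Its count at an unadjusted p under 0.05 was 3 members, CLPP at 0.43, HSP90B1 at -0.34 and DNAJB4 at -2.39, with 6.13% of genes. DESeq2 called 0 members there too. The difference between the lines was itself tested, and 0 members and 0.0% of genes were called by edgeR and 0 members by DESeq2. HSP90AA1 (difference 0.68, SE 0.28) and LONP1 (-0.50, SE 0.22) had an unadjusted p under 0.05, and 3.99% of genes did, and the edgeR adjusted p of both was 0.991.

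Single libraries decided how many members were called with tetracycline over both lines. The count was 0 without FLP replicate 1, FLP_TET replicate 1, FLP_TET replicate 2, RPRD1B_FL replicate 2 or RPRD1B_FL_TET replicate 1, and at most 0.162% of all genes were called in those fits. It was 4 without RPRD1B_FL replicate 1 (5.22% of genes), 5 without FLP replicate 2 (7.80%) and 15 without RPRD1B_FL_TET replicate 2 (19.3%), so calls over all genes rose and fell with those of the members. Without FLP replicate 1, HSP90AA1 was at -0.38 (edgeR adjusted p = 0.196) over both lines, and at -0.50 (adjusted p = 0.629) in FLP cells alone. FLP cells alone gave 0 members without FLP replicate 1, FLP_TET replicate 1 or FLP_TET replicate 2 (0.0% of genes), 5 without FLP replicate 2 (5.52%), and 8 without RPRD1B_FL_TET replicate 1 (10.6%) or replicate 2 (10.4%). A group left with 1 library is assumed in these fits to vary like the other groups.

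The relation of levels to GC content varied between libraries and tended to be higher with tetracycline, though the ranges overlapped. The rank correlation, across genes, between a library's deviation from the mean and the GC content of transcripts was -0.13 to 0.60 in the 4 libraries with tetracycline and -0.55 to 0.17 in the 4 without. Across the 44 members the log2 fold change with tetracycline had a Spearman correlation of 0.63 with transcript GC content, and across all genes 0.58. The members share libraries, so these are descriptions. After a GC correction the correlation over members was 0.06. CLPP, with 61.6% GC, went from 0.50 to 0.29 (edgeR adjusted p = 0.0633) and was no longer called. STIP1 (51.6% GC) was at 0.35 (adjusted p = 0.043) and HSP90AA1 (46.5% GC) at -0.51 (adjusted p = 0.0386) after the same correction, and both stayed called. CCT7 was called after it, at 0.34 (adjusted p = 0.0473). LONP1, with 63.1% GC, went from 0.33 to 0.09, SDF2L1 from 0.38 to 0.11 and HSP90B1 from -0.32 to -0.13. The median of mitochondrial members went from 0.01 to 0.07, that of cytosolic members from -0.04 to 0.07 and that of ER members from 0.12 to 0.10.

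**Figure D3:**
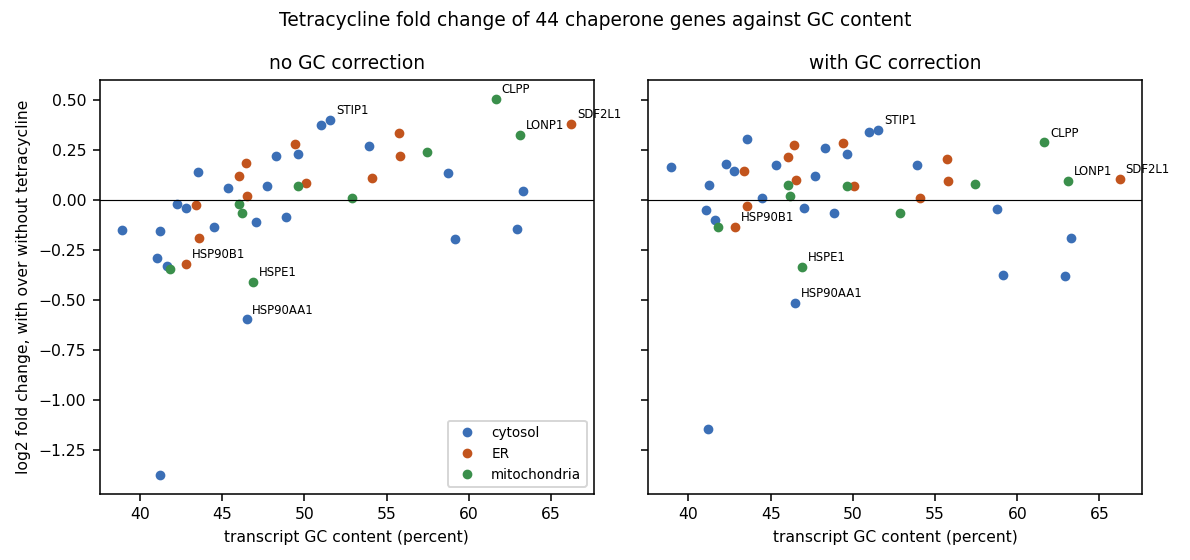
Log2 fold change with over without tetracycline (both lines) against the GC content of each gene's transcripts for 44 chaperone genes, before (left) and after (right) the correction for GC content. On the left GC-rich genes such as CLPP, LONP1 and SDF2L1 lie above 0, and on the right only the tilt is gone: HSP90AA1 and HSPE1 stay low and STIP1 stays high.

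Regulators and neighbours of these systems moved in both directions. ATF5, a factor tied to the mitochondrial response, was at 70.7 and 81.7 CPM in FLP, 95.1 and 91.5 in FLP_TET, 86.7 and 78.4 in RPRD1B_FL, and 101.7 and 70.8 in RPRD1B_FL_TET, and its groups overlapped. Log2 fold changes over both lines were 0.16 for ATF5, -0.13 for ATF4 and 0.09 for DDIT3 (CHOP), with edgeR adjusted p of 0.44, 0.544 and 0.727. None of 20 tested mitochondrial and integrated stress genes was called by edgeR, while DESeq2 called 2. At an unadjusted p under 0.05 stood 7 of them, 6 higher and 1 lower, with 23.9% of all genes. Of 27 other mitochondrial import and quality control genes, the translocase subunit TIMM17B rose (0.63, SE 0.16) and the iron-sulfur cochaperone HSCB fell (-0.85, SE 0.21). Of 35 other cytosolic genes, the cochaperones BAG6 (0.54, SE 0.14) and HSPBP1 (0.45, SE 0.12) rose. None of 34 other ER genes was called by edgeR or DESeq2, and 9 had an unadjusted p under 0.05, 4 higher and 5 lower. That count was 12 for the 27 other mitochondrial genes, 9 higher and 3 lower. For the 35 other cytosolic genes it was 16, 10 higher and 6 lower. All 13 mitochondrially encoded mRNAs were listed at 0 in every library, so they gave no value.

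Between the RPRD1B_FL line and the FLP line, the members called by edgeR without GC correction were cytosolic. The 35 other cytosolic genes did not share this: over both conditions 0 were called higher and 2 lower (CCT5 and CCT8). Over both conditions 7 of 44 members were called, all of them cytosolic, 6 higher and 1 lower, and 4.08% of genes were, 1.41% higher and 2.68% lower. Higher in RPRD1B_FL were 3 subunits of the TRiC chaperonin, which folds actin and tubulin, with the HSP110 gene HSPH1, the factor HSF2 and HSPA1B. The small heat shock protein HSPB1 was lower. No ER or mitochondrial member was called by edgeR or DESeq2, with 2 ER members (PDIA6 higher and HSP90B1 lower) and 0 mitochondrial ones at an unadjusted p under 0.05, where 17.5% of genes stood. After the GC correction the ER member PDIA6 (0.30, edgeR adjusted p = 0.038) and the cytosolic AHSA1 (0.27, adjusted p = 0.047) were called as well, with 7.06% of genes. RPRD1B itself was higher by 0.84 (SE 0.14) and RPRD1A lower by -0.69 (SE 0.14) in this comparison. These means join unlike conditions. Without tetracycline RPRD1B was at 0.34 and RPRD1A at -0.27, neither called by edgeR. With it they were at 1.34 and -1.11, both called.

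TCP1 (chr6:159778498-159789749), TRiC subunit 1, was at 481 and 459 CPM in FLP, 508 and 493 in FLP_TET, 684 and 675 in RPRD1B_FL, and 703 and 713 in RPRD1B_FL_TET. All 4 RPRD1B_FL libraries were above all 4 others, with the 2 libraries of each group close together. The log2 fold change was 0.51 (SE 0.10, edgeR adjusted p = 0.00203). CCT4 (chr2:61868089-61888804) was at 548 and 612, 681 and 663, 811 and 810, and 849 and 886 CPM in the same order of groups, again with no overlap, for a log2 fold change of 0.42 (SE 0.10, edgeR adjusted p = 0.0125). CCT7 (chr2:73233420-73253021) was at 907 and 1076, 1386 and 1332, 1478 and 1273, and 1978 and 1471 CPM. The lines overlapped for CCT7, which also sat higher in FLP_TET than in FLP, and its log2 fold change was 0.40 (SE 0.11, edgeR adjusted p = 0.0353).

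TRiC subunits are made in equal numbers in the ring, and their mRNAs parted ways here. CCT2 (0.16) and CCT3 (-0.05), the other subunits among the members, were not called, nor was CCT6A (0.15), although CCT2 did not overlap between the lines, at 338 to 361 CPM in RPRD1B_FL cells and 310 to 317 in the others. CCT5 and CCT8, which are not members, fell. CCT5 was at 1006 and 1013 CPM in FLP, 1223 and 1144 in FLP_TET, 624 and 631 in RPRD1B_FL, and 673 and 659 in RPRD1B_FL_TET, with a log2 fold change of -0.76 (SE 0.09, edgeR adjusted p = 2.0e-05). CCT8 was at 841 and 775, 579 and 663, 404 and 459, and 323 and 460 CPM, with -0.79 (SE 0.12, adjusted p = 0.000147 in the same fit). CCT8 lies on chromosome 21, where the 105 genes tested had a median of -0.73. CCT5 lies on the short arm of chromosome 5, where 90 genes had a median of -0.50. The other chromosomes had a median of 0.01, and no member lies on either region.

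HSPH1 (chr13:31134974-31162388) was at 193 and 147 CPM in FLP, 153 and 147 in FLP_TET, 215 and 248 in RPRD1B_FL, and 199.9 and 235 in RPRD1B_FL_TET, with no overlap and a log2 fold change of 0.49 (SE 0.12, edgeR adjusted p = 0.0163). HSF2 (chr6:122399546-122433119), the second heat shock factor, was at 291 and 287, 243 and 263, 346 and 433, and 305 and 425 CPM, also with no overlap, at 0.48 (SE 0.12, adjusted p = 0.0221 in the same fit). HSPA1B (chr6:31827735-31830255) was at 554 and 486, 687 and 592, 816 and 701, and 866 and 653 CPM. Here the lines overlapped, and the log2 fold change was 0.39 (SE 0.11, edgeR adjusted p = 0.0427).

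HSPB1 (chr7:76302544-76304295), also known as HSP27, was at 20.5 and 17.8 CPM in FLP, 16.6 and 23.1 in FLP_TET, 11.3 and 12.6 in RPRD1B_FL, and 12.2 and 6.68 in RPRD1B_FL_TET. All 4 RPRD1B_FL libraries were below all 4 others, and the lowest held 15 counts. The log2 fold change was -0.87 (SE 0.21, edgeR adjusted p = 0.0163), and DESeq2 did not call it (adjusted p = 0.0679).

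**Figure D4:**
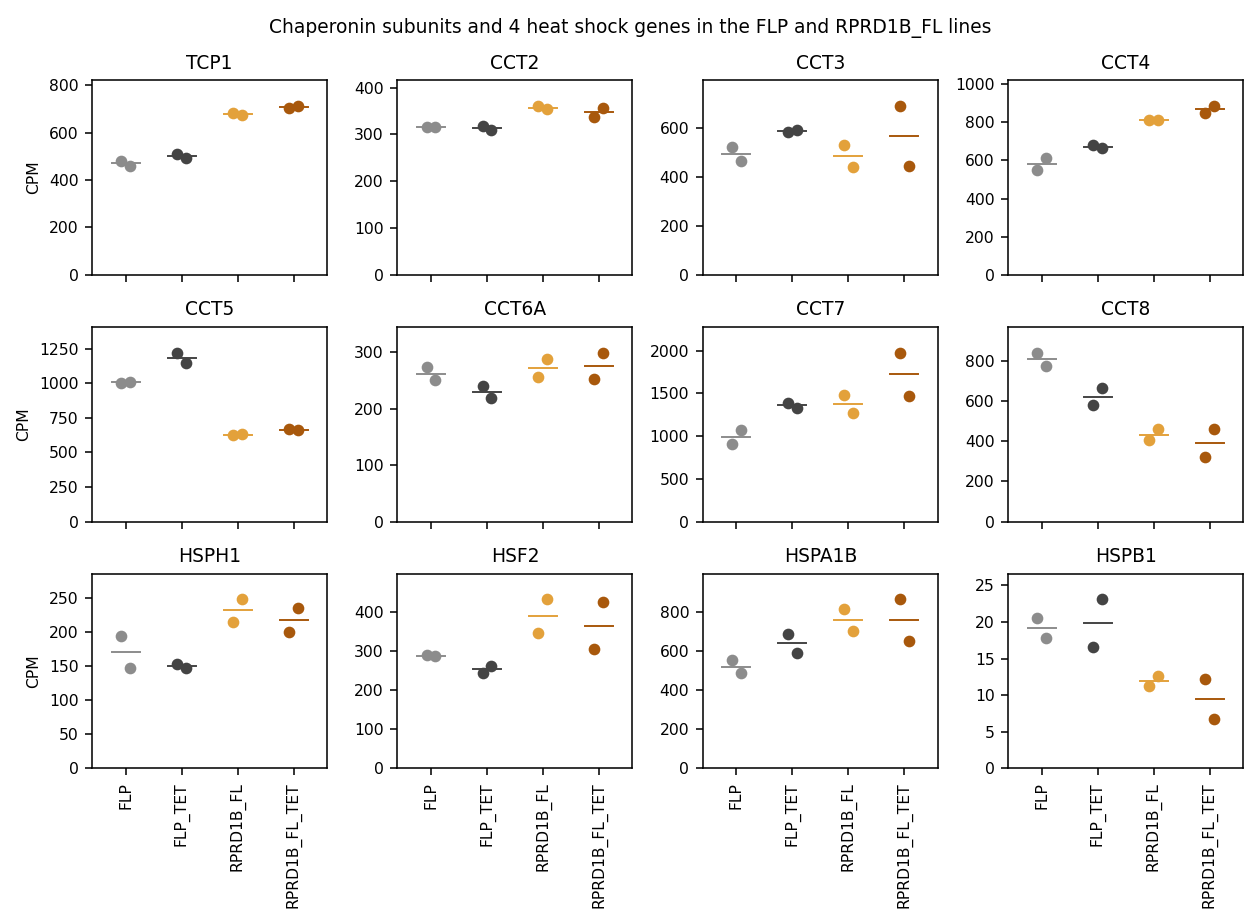
CPM in each Flp-In library (points) with the mean of its group (bars) for the 8 TRiC subunits and 4 heat shock genes, on axes that start at 0. TCP1 and CCT4 are higher and CCT5, CCT8 and HSPB1 lower in all 4 RPRD1B_FL libraries than in all 4 FLP libraries.

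Without overlap between the lines, 5 members were higher in RPRD1B_FL (HSF2, HSPH1, TCP1, CCT2 and CCT4), with 4.05% of genes. Only HSPB1 was lower throughout, with 4.85% of genes. The cytosolic median was 0.12, the ER median -0.04, the mitochondrial median 0.03 and that of all genes tested 0.00. Each condition alone called 0 members by edgeR, with 1.18% of genes called without and 1.11% with tetracycline. At an unadjusted p under 0.05 the counts were 10 members (13.3% of genes) without and 9 (10.3%) with it, and DESeq2 called 2 and 1. Of the 4 other tested lists, the stress genes gave PYCR1 higher (0.43, SE 0.12) and DDIT4 lower (-0.53, SE 0.12), the other cytosolic list gave CCT5 and CCT8, and the other ER and mitochondrial lists gave none called by edgeR or DESeq2 (unadjusted p under 0.05 for 1 and 3 of them). The number of members called over both conditions was 3 without FLP replicate 1, RPRD1B_FL replicate 1 or RPRD1B_FL replicate 2 (2.72%, 2.48% and 2.77% of genes), 2 without FLP_TET replicate 1 (1.67%) and 1 without FLP_TET replicate 2 (1.79%). TCP1 was called whichever library was left out, at 0.50 to 0.52. Of the called members in Flp-In cells, TCP1, CCT4, HSP90AA1 and CLPP overlap an annotated gene on the opposite strand, HSPA1B overlaps one on its own strand, and TCP1 also holds the small nucleolar RNA genes SNORA20 and SNORA29 on its own strand.

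In the main edgeR fit, which had no replicate block, silencing the RPRD genes called no chaperone gene in the 7 comparisons with control siRNA. Calls appeared in alternatives given below: 1 blocked fit and, for RPRD1A_RPRD2_KD, fits without its replicate 1 or without the filter on low counts. The comparisons share the same 2 control libraries, so their values are set side by side and not counted as separate evidence. Between 0.00845% and 0.0169% of the 11834 genes tested were called in them, which is 1 or 2 genes. At an unadjusted p under 0.05 stood 1 member in RPRD1A_KD with 2.64% of genes, 1 in RPRD1B_KD with 3.46%, 2 in RPRD2_KD with 3.84%, 1 in RPRD1A_RPRD1A_KD with 3.99%, 1 in RPRD1B_RPRD2_KD with 2.51%, 2 in RPRD1A_RPRD1B_RPRD2_KD with 3.99% and 6 in RPRD1A_RPRD2_KD with 7.07%. DESeq2 called 0 members in each of the 7. Over the mean of the 7 groups 0 members were called, with 0.0169% of genes, and DESeq2 called 0 too. In that mean 34 of 44 fold changes were below 0, against 52.2% of all genes, and the median was -0.12 against -0.01. By compartment the medians were -0.13 for cytosolic, -0.10 for ER and -0.13 for mitochondrial members. The ER median was 0.041 without control replicate 2.

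The lowest unadjusted p values in that mean belonged to HSP90 cochaperones. STIP1 was at 747 and 682 CPM with control siRNA, and its 14 silenced libraries ran from 505 to 788 CPM with a median of 568. Only the second RPRD1A_RPRD2_KD library rose above the controls. The log2 fold change was -0.30 (SE 0.12, unadjusted p = 0.0218, edgeR adjusted p = 1). AHSA1, which speeds the ATPase of HSP90, was at 669 and 626 CPM with control siRNA and 458 to 644 CPM in silenced libraries, with -0.25 (SE 0.11, unadjusted p = 0.0443, edgeR adjusted p = 1). These 2 were the members at an unadjusted p under 0.05, with 4.04% of genes.

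With the replicate number as a block and the second RPRD1A_RPRD2_KD library, which stood apart, left out, some members fell. In the mean of the 7 groups 4 were called, with 1.32% of genes: STIP1 at -0.34 (edgeR adjusted p = 0.000502), HSPA1B at -0.38 (0.00644), PDIA3 at -0.32 (0.0313) and LONP1 at -0.30 (0.0455). STIP1 was lower and called in RPRD1B_KD, RPRD2_KD, RPRD1A_RPRD1A_KD, RPRD1B_RPRD2_KD and the triple silencing, at -0.30 to -0.39, and these share their control libraries. AHSA1 and HSPA1B were called besides in RPRD1A_RPRD1A_KD, and AHSA1, PDIA3 and SDF2L1 in RPRD2_KD. Between 0.204% and 1.36% of genes were called in those 5 comparisons. Leaving the library out without the block, or the block with all 16 libraries, called 0 members in each comparison.

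In the main edgeR fit, without the block, the ends of each compartment in the same mean were not called. Of these, HSPA1B and PDIA3 were called in the blocked fit above. Cytosolic values ran from -0.42 for HSPA1B to 0.25 for the cochaperone BAG3. HSPA1B was at 789 and 831 CPM with control siRNA and at 283 to 805 CPM in silenced libraries. BAG3 was at 24.4 and 30.6 CPM and at 13.2 to 42.5 CPM. ER values ran from -0.30 for the disulfide isomerase PDIA3 to 0.17 for DNAJB9. Mitochondrial values ran from -0.30 for the HSP40 gene DNAJA3 to 0.06 for HSPE1. The HSP60 gene HSPD1 was at 1021 and 1015 CPM with control siRNA and 962 to 1165 CPM in silenced libraries, for 0.02 (SE 0.10). No member had all 14 silenced libraries on one side of both controls, and 0.930% of genes were higher and 0.811% lower in that way.

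**Figure D5:**
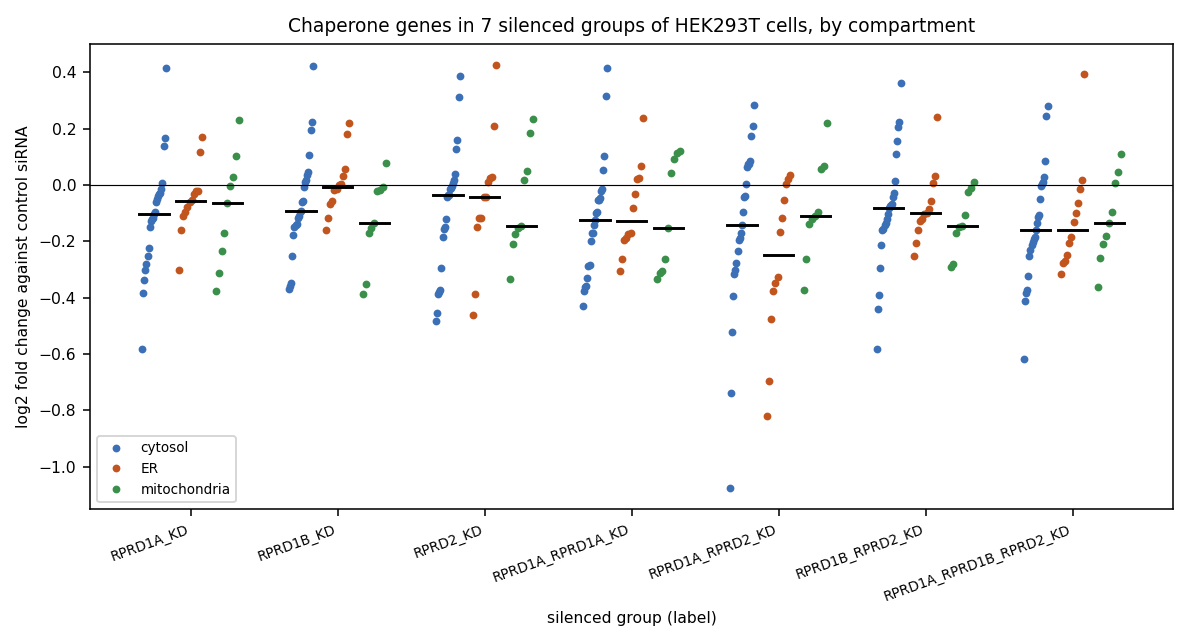
Log2 fold change against control siRNA for 44 chaperone genes (points) in the 7 silenced groups of HEK293T cells, with the median of each compartment (black bars). All 7 comparisons share 2 control libraries, so a shift common to them is 1 measurement and not 7, and the widest downward spread is in RPRD1A_RPRD2_KD.

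The double silencing labelled RPRD1A_RPRD2_KD held the 4 lowest log2 fold changes of members among the 7 comparisons. Its unadjusted p was under 0.05 for 6 members (PDIA4, HSP90B1, PDIA6, HSPA9, DNAJB4 and HSPA1B, all lower), with 7.07% of genes. PDIA4, an ER disulfide isomerase, was at 263 and 334 CPM with control siRNA and at 215 and 128 here (-0.82, SE 0.24, edgeR adjusted p = 0.619). HSP90B1 was at 523 and 652 CPM with control siRNA and 486 and 246 here (-0.69, SE 0.24, adjusted p = 0.619 in the same fit). HSPA1B was at 694 and 283 CPM in its 2 libraries. In PDIA4, HSP90B1 and HSPA1B the low value was the second library, which stood apart from all others and whose deviations had a rank correlation of 0.46 with transcript GC content, against -0.24 to 0.11 in the other 15 libraries. Its part in these values was not tested beyond leaving a library out: without RPRD1A_RPRD2_KD replicate 1, so with only that library, 4 members were called (BAG3, HSPA1B, HSP90B1 and PDIA4) with 4.66% of genes, and without it 0 with 0.00816%. Both fits have 1 library in that group, which is assumed to vary like the other groups.

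Part of the spread among HEK293T libraries went with the replicate number in the titles. In all 8 groups the library numbered 2 was above the library numbered 1 for 5 members, XBP1, FKBP4, HSPA5, LONP1 and TCP1, while 6.66% of genes were. It was below for 3, DNAJA1, HSPE1 and HSP90AA1, while 6.03% were. XBP1, for example, was at 169 to 237 CPM in libraries numbered 1 and at 234 to 338.5 CPM in those numbered 2. The labels do not say what the number stands for.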

How the data were processed

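The authors deposited whole-number read counts per gene name, 1 table per library. Per the submitters' processing notes the tools were FastQC, STAR, HTSeq and DESeq2 on GRCh38, with no versions, and the annotation and strand setting are not given in the sources used here. The 5 closing rows for reads outside genes held 30.4% to 48.5% of all rows' counts and were left out. Tests used edgeR 4.0.16 under R 4.3.3, with limma 3.58.1: 1 fit per line with a coefficient per group, filterByExpr (minimum count 10, total 15), TMM scaling and the quasi-likelihood test, adjusted by Benjamini-Hochberg over all genes tested (11834 in HEK293T, 11948 in Flp-In). SEs divide the absolute fold change by the root of the F statistic. Levels are CPM, and log2 levels in the plots add 1. DESeq2 1.42.0, size factors by RLE (relative log expression), 2 other filters, fits of only the compared groups, a replicate block, a GC correction (lowess, span 0.3, on GENCODE 29 transcripts) and leaving out each library were alternatives. The scripts were tested on simulated data.

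The chaperone genes and the other lists were chosen with earlier results of these data known. Genes given in every library are those called and representatives of each role set by rule. CCT5, CCT6A, CCT8, PDIA4 and the genes set out by replicate number or between the lines were named after their values were seen. Pairing by replicate number was checked on deviations from group means and is given with the alternatives.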

Additional observations from a re-analysis of the deposited data

How the results depend on the processing

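Values are numbers of members called, with the report's own in brackets. Percentages are shares of all genes called in the same fit, and those of the report's own fits are given above. Counts without a share beside them cannot be read as particular to the members. FLP_TET against FLP (1) gave 4 by DESeq2 (2.09%), 2 with GC correction (1.51%) and 2 with GC correction and the replicate block (2.06%). It gave 0 with a mean count of 50 or more (0.0%), 6 with no filter and 8 in a fit of only the compared groups. Tetracycline over both lines (3) gave 5 by DESeq2 (3.07%), 0 with a mean count of 50 or more and 7 with no filter. RPRD1B_FL against FLP (0) gave 2 by DESeq2 (0.887%), 5 with GC correction (2.55%), 6 with GC correction and the block (2.83%), and 5 with no filter. RPRD1B_FL_TET against FLP_TET (0) gave 1 by DESeq2 (0.737%), 3 with GC correction (2.18%) and 3 with the block added (2.21%). It gave 1 with no filter and 1 with only the compared groups. The lines over both conditions (7) gave 4 with a mean count of 50 or more (4.17%). RPRD1A_RPRD2_KD (0) gave 3 with no filter. The median of cytosolic members with tetracycline went from -0.04 to 0.075 with GC correction and to 0.074 with the block added. DESeq2 did not call HSP90AA1 in either tetracycline comparison or HSPB1 between the lines. The cause was not tested in any of these.

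Leaving out 1 library at a time gave 0 to 8 for FLP_TET against FLP, 0 to 15 for tetracycline over both lines, 0 to 1 for RPRD1B_FL_TET against RPRD1B_FL, 0 to 4 for RPRD1B_FL against FLP, 0 to 3 for RPRD1B_FL_TET against FLP_TET, 1 to 9 for the lines over both conditions and 0 to 4 for RPRD1A_RPRD2_KD. It gave a median of ER members of -0.18 to 0.041 over the mean of the silenced groups and of -0.049 to 0.044 between the lines. The ranges of called members stand here without shares of all genes called in the same fits. They cannot be read as particular to the members, and each of these fits left 1 library in a group.

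A replicate block left 0 members called in FLP_TET against FLP and changed no other count by more than 1.5 times, though STIP1 (edgeR adjusted p = 0.0582) and CCT7 (0.0554) lost their calls with tetracycline and between the lines. In HEK293T the deviations of same-numbered libraries correlated at 0.336 on average over 28 pairs of groups (-0.0115 to 0.527). All 21 pairs without RPRD1A_RPRD2_KD were over 0.1 (from 0.29), and 5 of the 7 with it, so the numbers pair the other 7 groups by the criterion that every pair exceeds 0.1, and not all 8. In Flp-In cells the mean was -0.0175 over 6 pairs (-0.352 to 0.4545), and the numbers were not taken as pairs. With the outlying RPRD1A_RPRD2_KD library left out and the block kept, calls, all lower, were 4 in the mean of the silenced groups, 4 in RPRD2_KD, 3 in RPRD1A_RPRD1A_KD, and 1 each in RPRD1B_KD, RPRD1B_RPRD2_KD and RPRD1A_RPRD1B_RPRD2_KD, with 0.204% to 1.36% of all genes called in these fits. Crossing the numbers in the block, an alternative picked once the data were seen, gave 6 in RPRD1B_FL against FLP and 4 in RPRD1B_FL_TET against FLP_TET.

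No alternative reversed a called member's direction, and TCP1 between the lines was called under all 16. With 2 libraries a group and 3 counts worth about 1 CPM, changes in HSPA1A, HSPA8, DNAJB4 and DNAJB9 were not resolved.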
